A study of Mus musculus with 6 samples.

Results

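The troponin genes of the mouse were followed in embryonic cardiomyocytes after knockdown of DNMT1, the enzyme that copies DNA methylation onto newly made strands. The 8 genes of the family were taken by symbol from the count files: Tnnc1 and Tnnc2 for troponin C, Tnni1, Tnni2 and Tnni3 for troponin I, and Tnnt1, Tnnt2 and Tnnt3 for troponin T. All 8 were found among the 43629 genes listed, and 6 of them were among the 15470 genes that passed the filter on low counts. Cardiomyocytes were cultured from ventricles of CD-1 mouse embryos at embryonic day 13.5. They were transfected after 48 h with 12 nM negative siRNA (3 cultures) or 12 nM DNMT1 siRNA (3 cultures). Cells were collected 72 h later by magnetic sorting on VCAM1, a surface protein of embryonic heart muscle cells. The DNMT1 siRNA was a pool of 4 siRNAs, and nothing in either group was a genetic change. The labels do not say whether cultures of a group came from separate litters, so p-values measure the spread between these cultures only, which may be technical.

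Troponin is the calcium switch of the striated muscle thin filament. Troponin C binds calcium, troponin I holds back the contact of actin with myosin until it does, and troponin T ties both to tropomyosin. Each subunit has isoforms made from separate genes. The heart uses Tnnc1, which slow skeletal muscle shares, and Tnnt2, while Tnni1, the slow skeletal isoform, is the main troponin I gene of the fetal heart and gives way to the cardiac Tnni3 around and after birth. Tnnc2, Tnni2 and Tnnt3 belong to fast skeletal muscle and Tnnt1 to slow skeletal muscle.

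Stretches of 150 bases before annotated transcript starts are printed for the 4 genes that the comparison turns on, since 3 of them rose together and Tnni1 did not. They come from RefSeq (GRCm38.p6), which held a start region for 6 of the 8 genes, and they read 5′ to 3′ on the strand of the gene with each CpG, the dinucleotide that DNMT1 acts on, in capitals. The windows were chr7:4522529-4522678 (minus strand) for Tnni3, chr1:135799252-135799401 (plus) for Tnni1, chr14:31208162-31208311 (plus) for Tnnc1 and chr1:135836184-135836333 (plus) for Tnnt2, and none held an exon base of a coding transcript of its gene. The windows of Tnni3 and Tnni1 lie inside the annotated genes, since other transcripts of both begin further upstream.
Tnni3: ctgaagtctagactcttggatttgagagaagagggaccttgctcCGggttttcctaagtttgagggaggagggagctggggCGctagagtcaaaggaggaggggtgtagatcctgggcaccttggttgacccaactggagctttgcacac
Tnni1: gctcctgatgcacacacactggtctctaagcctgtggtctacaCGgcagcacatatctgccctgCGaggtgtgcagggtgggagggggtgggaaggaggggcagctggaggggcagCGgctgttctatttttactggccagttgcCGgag
Tnnc1: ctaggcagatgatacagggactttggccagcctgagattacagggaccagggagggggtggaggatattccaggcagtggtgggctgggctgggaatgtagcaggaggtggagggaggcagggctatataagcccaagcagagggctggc
Tnnt2: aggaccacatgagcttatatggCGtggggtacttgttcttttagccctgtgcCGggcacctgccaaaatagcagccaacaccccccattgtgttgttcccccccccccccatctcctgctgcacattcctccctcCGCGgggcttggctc

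The Tnnc1 window held 0 CpGs, the Tnni3 window 2 and the windows of Tnnt2 and Tnni1 4 each, against a median of 4 over 32817 windows of equal length. As few CpGs as in Tnnc1 were found in 14.3% of all windows, as few as in Tnni3 in 40.6%, and as few as in Tnnt2 and Tnni1 in 54.3%. Short motifs for 6 factors or boxes were searched on both strands. The MCAT motif (CATTCC), to which TEAD factors bind, began 58 bases before the end of the window in Tnnc1 and 27 bases before it in Tnnt2, was not found in Tnni3 or Tnni1, and occurred in 7.58% of all windows. The letters TATAA stood 24 bases before the end in Tnnc1 and 136 bases before it in Tnnt2 (14.2% of all windows). An E-box (CANNTG) was present in all 4 windows (47.7% of all windows). The GATA core (GATAA, 13.4%), the MEF2 motif (1.67%) and the CArG box (0.917%) were found in none of the 4. No match overlapped another, and the Tnni3 and Tnni1 windows did not differ in which of these motifs they held. DNA methylation was not analysed here. The paper reported lower methylation after DNMT1 knockdown at CpGs in proximal promoter regions of Tnnc1, Tnni3 and Tnnt2. Tnnc1 is among them although its window held 0 CpGs, so the windows do not stand for whole promoters.

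Levels are given as CPM, the counts of a gene scaled to a library of 1000000 counts with edgeR's TMM factors, and as CPM per kb of exon where genes are compared with each other. A gene was called when edgeR's quasi-likelihood test gave an adjusted p (Benjamini-Hochberg over 15470 genes) below 0.05 and its fold change exceeded 1.5, the limits of the study. Counts on genes ranged from 27852412 to 35896018 per negative siRNA culture and from 13739561 to 16186310 per DNMT1 siRNA culture, and reads on no gene made up 14.6% to 17.5% and 24.4% to 32.0% of the uniquely mapped reads. Ambiguous reads made up 3.58% to 3.65% and 6.02% to 6.35%. Alignments that were not unique numbered 24706413 to 32930393 with negative siRNA and 21776384 to 25901133 with DNMT1 siRNA. They exceeded the counts on genes in every DNMT1 siRNA culture and in no negative siRNA culture. Short non-coding, ribosomal and mitochondrial genes took 0.505% to 0.991% and 1.81% to 2.92% of the counts. The 3 troponin calls held when those genes were left out, and otherwise the part of these differences between the groups' libraries in the results was not tested. Dnmt1 stood at 127 to 159 CPM with negative siRNA and at 30.7 to 36.2 CPM with DNMT1 siRNA, while Dnmt3a, the enzyme whose siRNA is given in the treatment tag of these 3 cultures, averaged 251 and 296 CPM and was not called. The 10 cardiomyocyte markers were present in every culture, with summed levels of 1073 to 1716 CPM under negative siRNA and 2960 to 3828 CPM under DNMT1 siRNA. The 8 fibroblast markers had sums of 36082 to 55676 CPM and 27401 to 29238 CPM, far above those of the cardiomyocyte markers in every culture. Sums over different genes do not give shares of cells. Vcam1, the gene of the sorting marker, averaged 297 and 248 CPM, with no overlap between the groups. It was not called (log2 fold change -0.26, edgeR adjusted p = 0.148). Negative siRNA replicate 2 stood apart in several muscle genes, and its influence is given beside the results it moved most.

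DNMT1 siRNA was accompanied by higher levels of 3 of the 8 troponin genes. The 3 that rose were the heart's own set of one gene per subunit: Tnnc1 by 2.50-fold, Tnni3 by 2.92-fold and Tnnt2 by 1.53-fold. Tnni1, Tnnt1 and Tnnt3 did not pass the test, and Tnni2 and Tnnc2 had too few reads to be tested. No member was called lower by edgeR's quasi-likelihood or exact test or by DESeq2, and 0 of the 6 tested had a log2 fold change below 0 with an unadjusted p under 0.05. Of all genes tested, 4.26% were called higher and 2.23% lower, and the cultures of the groups did not overlap in 18.3% (DNMT1 siRNA higher) and 17.7% (lower). These shares are the background for the counts of every list below. The share of all genes with an unadjusted p under 0.05 was not counted, so counts at that limit have no background here or below. In these bulk samples, fewer cells of a type and less RNA per cell cannot be told apart.

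**Figure D1:**
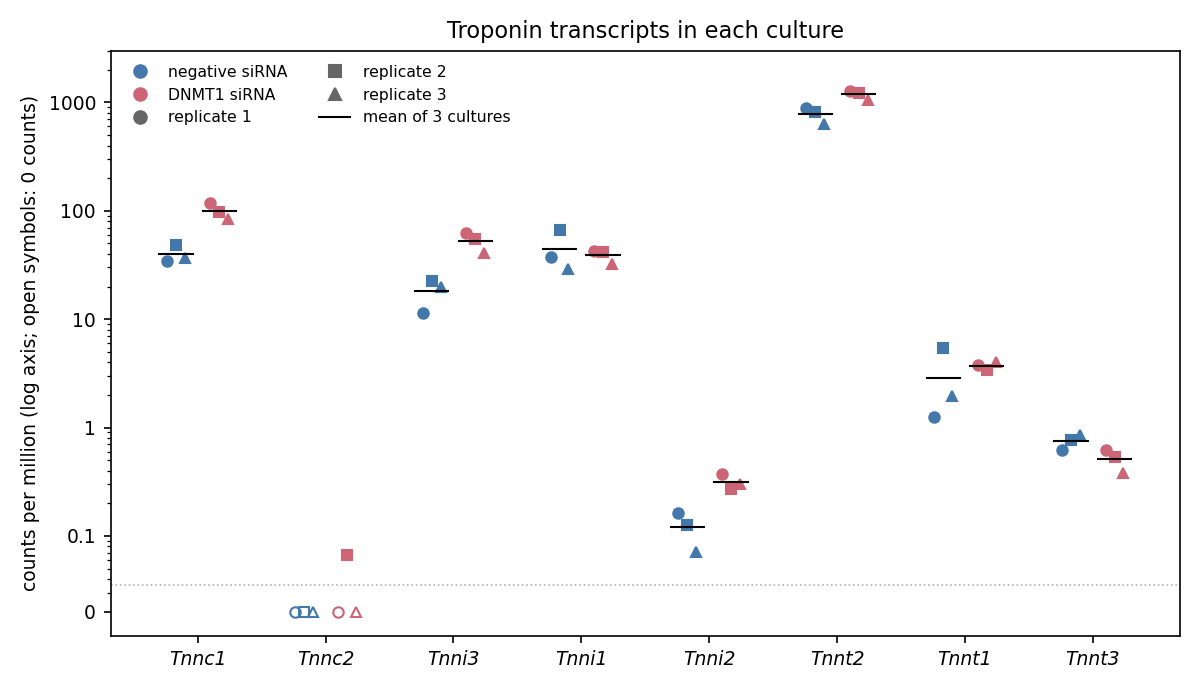
CPM of the 8 troponin genes on a log axis, with 1 symbol per culture (shape: replicate number) and a bar for the mean of 3 cultures; open symbols below the dotted line mark 0 counts. Tnnc1, Tnni3 and Tnnt2 lay higher in all 3 DNMT1 siRNA cultures than in any negative siRNA culture, while the symbols of Tnni1 and Tnnt1 overlapped.

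Among the troponin C genes, Tnnc1 (ENSMUSG00000091898, chr14:31208312-31211729 in GRCm38, as are all positions) was the only one with more than 1 read in any culture. It stood at 34.6, 48.5 and 36.5 CPM in negative siRNA replicates 1 to 3 and at 117, 97.5 and 83.5 CPM in DNMT1 siRNA replicates 1 to 3. The groups did not overlap, and the lowest DNMT1 siRNA culture was well above the highest control. The log2 fold change was 1.32 (SE 0.16, edgeR adjusted p = 0.00253), and with any 1 culture left out it lay between 1.16 and 1.49 and stayed called. Tnnc1 lies inside Nisch, which runs on the other strand and shares no exon base with it. Nisch itself stood at 722 to 810 CPM and 978 to 1009 CPM (log2 fold change 0.39, edgeR adjusted p = 0.0137, under the fold limit), and the part of unspliced Nisch RNA in the Tnnc1 reads was not tested. Tnnc2, the fast skeletal gene (ENSMUSG00000017300, chr2:164777161-164779967), had 0 reads in 5 of the 6 cultures and 1 read in DNMT1 siRNA replicate 2, under the 3 counts that a count of 0 allows, which are worth 0.0806 to 0.107 CPM in the negative siRNA cultures and 0.185 to 0.226 CPM in the DNMT1 siRNA cultures.

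Among the troponin I genes, the cardiac gene rose and the fetal gene did not pass the test. Tnni3 (ENSMUSG00000035458, chr7:4518305-4524229) stood at 11.4, 22.7 and 20.0 CPM in the negative siRNA cultures and at 62.6, 54.6 and 40.4 CPM in the DNMT1 siRNA cultures. Negative siRNA replicate 1 was the lowest of the controls and no control reached the lowest DNMT1 siRNA culture. The log2 fold change was 1.55 (SE 0.25, edgeR adjusted p = 0.00817). It remained called with each culture left out (1.30 to 1.76), with adjusted p up to 0.0494. Tnni1 (ENSMUSG00000026418, chr1:135779434-135810989) stood at 37.2, 66.9 and 28.8 CPM and at 43.0, 42.0 and 32.5 CPM. The DNMT1 siRNA cultures lay within the range of the controls, whose spread came mostly from negative siRNA replicate 2. The log2 fold change of Tnni1 was -0.18 (SE 0.28, edgeR adjusted p = 0.714), with a 95% interval from -0.82 to 0.46, and without negative siRNA replicate 2 it was 0.25. Tnni2, the fast skeletal gene (ENSMUSG00000031097, chr7:142441808-142444410), had 6, 4 and 2 reads with negative siRNA and 6, 4 and 4 reads with DNMT1 siRNA. At 0.0716 to 0.161 CPM and 0.269 to 0.371 CPM its cultures did not overlap, but the gene rested on 26 reads in all, and when it was kept in the test its log2 fold change was 1.29 (SE 0.78, edgeR adjusted p = 0.380).

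Among the troponin T genes, the cardiac gene made up nearly all of the transcripts and was the only one called. It rose the least of the 3 troponin genes called, after Tnni3 and Tnnc1. Tnnt2 (ENSMUSG00000026414, chr1:135836354-135852260) stood at 886, 808 and 635 CPM with negative siRNA and at 1282, 1220 and 1057 CPM with DNMT1 siRNA. The groups did not overlap. The log2 fold change was 0.61 (SE 0.13, edgeR adjusted p = 0.0223), just past the fold limit, and the call was lost in 4 of the 6 fits that left out a culture, with log2 fold changes of 0.49 to 0.67 in them. Gene counts do not separate the fetal and adult splice forms of Tnnt2. Tnnt1, the slow skeletal gene (ENSMUSG00000064179, chr7:4504570-4516382), stood at 1.26, 5.43 and 1.93 CPM and at 3.77, 3.42 and 3.99 CPM. Negative siRNA replicate 2 was the highest of all 6 cultures, and the other controls were the lowest. With it the log2 fold change was 0.38 (SE 0.48, edgeR adjusted p = 0.643), and without it 1.23 (SE 0.25, edgeR adjusted p = 0.0106), past both limits. Tnnt3, the fast skeletal gene (ENSMUSG00000061723, chr7:142498836-142516009), stood at 0.618, 0.762 and 0.860 CPM and at 0.618, 0.537 and 0.377 CPM, with 5 to 24 reads per culture. Its log2 fold change was -0.52 (SE 0.34, edgeR adjusted p = 0.343), and the lowest control and the highest DNMT1 siRNA culture were level to 3 digits.

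Per kb of merged exons, the order of the genes was Tnnt2, Tnnc1, Tnni1, Tnni3, Tnnt1, Tnnt3, Tnni2 and Tnnc2 under negative siRNA, and Tnni1 and Tnni3 changed places under DNMT1 siRNA. Tnnt2 averaged 100.2 ± 16.6 and 153 ± 14.9 CPM per kb (SD, n = 3 per group). Tnnc1 followed with 38.3 ± 7.24 and 95.5 ± 16.2 CPM per kb. Under negative siRNA, Tnni1 (8.01 to 18.6 CPM per kb) and Tnni3 (5.54 to 11.0 CPM per kb) overlapped, so that their order could not be told from the spread. Under DNMT1 siRNA they did not overlap, with Tnni3 at 19.6 to 30.4 CPM per kb and Tnni1 at 9.02 to 11.9 CPM per kb. Tnnt3 (0.238 to 0.390 CPM per kb) and Tnni2 (0.179 to 0.248 CPM per kb) overlapped there as well.

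The share of cardiac Tnni3 in the sum of Tnni1 and Tnni3, per kb of exon, sets the adult isoform against the fetal one within each culture. A higher share does not show that Tnni1 fell, and Tnni1 itself did not pass the test. It does not depend on library size. The share was 34.9%, 37.2% and 54.8% in negative siRNA replicates 1 to 3 and 71.8%, 69.4% and 68.5% in DNMT1 siRNA replicates 1 to 3. Tnni1 was thus the larger of the pair in 2 of the 3 controls and Tnni3 in all 3 knockdown cultures. The means were 42.3% ± 10.9 and 69.9% ± 1.71 (SD, n = 3), a difference of 27.6 percentage points. All 3 DNMT1 siRNA cultures lay above all 3 controls, for which an exact two-sided permutation test gave p = 0.1, the smallest that 3 cultures against 3 allow (0.2 after Benjamini-Hochberg adjustment over 6 shares and sums). Reads were 425 to 1014 for Tnni3 and 431 to 2107 for Tnni1 per culture. Leaving out single cultures moved the difference between 23.9 and 33.8 points.

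**Figure D2:**
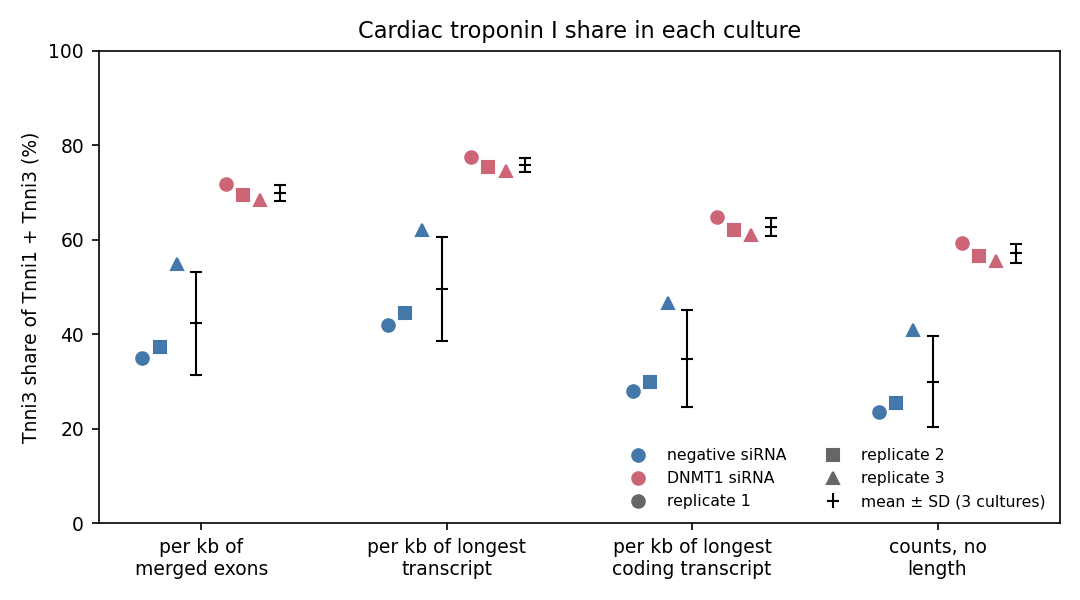
Share of Tnni3 in Tnni1 plus Tnni3 in percent for each culture, under 4 ways to account for gene length, with mean ± SD of 3 cultures beside the points. The level moved with the length used, while the DNMT1 siRNA cultures stayed above the controls by 26.3 to 27.8 percentage points.

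The level of the share, unlike the difference, depended on the exon length assumed. With the longest transcript of each gene the means were 49.5% and 75.8%, with the longest protein-coding transcript 34.9% and 62.6%, and with plain read counts 29.9% and 57.1%. The control means were below 50% under each length, although the spread between cultures left negative siRNA replicate 3 above it with merged exons (54.8%) and with the longest transcript (62.1%).

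The shares within troponin T and C did not separate the groups. Tnnt1 made up 0.497%, 2.30% and 1.05% of the troponin T transcripts per kb in the controls and 1.02%, 0.975% and 1.31% in the knockdown cultures. The knockdown values lay within the control range, with means of 1.28% ± 0.922 and 1.10% ± 0.180 (SD, n = 3; exact permutation test, p = 0.8), and without negative siRNA replicate 2 the difference turned from -0.181 to 0.326 points. Tnnc2 made up 0% of troponin C in the controls and 0.0298% on average in the knockdown cultures, from 1 read.

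Summed over the genes of each subunit, troponin C went from 38.3 ± 7.24 to 95.5 ± 16.2 CPM per kb, troponin I from 21.1 ± 7.44 to 36.6 ± 7.05 and troponin T from 101.9 ± 16.6 to 155 ± 14.9 (SD, n = 3). The groups did not overlap for troponin C and T (exact permutation test, p = 0.1 for each). For troponin I, negative siRNA replicate 2 (29.7 CPM per kb) lay above DNMT1 siRNA replicate 3 (28.8 CPM per kb), and the exact permutation test gave p = 0.2. This overlap rested on that control and on the length used, since without it the log2 ratio was 1.12 in place of 0.79 (exact permutation test, p = 0.1), and per kb of the longest transcript the groups did not overlap (exact permutation test, p = 0.1). The mean ratios were 2.49 for troponin C, 1.73 for troponin I and 1.52 for troponin T. Troponin T was the highest sum with each length used, whereas troponin I was below troponin C per kb of merged exons and above it in the controls per kb of the longest coding transcript (58.5 against 55.3).

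The reads of the members were also set against each other. Within each culture, where library size cancels, the log2 ratio of Tnni3 to Tnni1 reads went from -1.26 ± 0.64 to 0.41 ± 0.12 (SD, n = 3). The ratio of Tnni3 to Tnnt2 went up by 0.96 and that of Tnnc1 to Tnnt2 by 0.70 on the log2 scale, both with no overlap between the groups. Without negative siRNA replicate 1 the difference for Tnni3 to Tnnt2 was 0.55, the lowest with a single culture left out, and for Tnnc1 to Tnnt2 such differences ran from 0.50 to 0.81. The ratio of Tnni1 to Tnnt2 went down by a log2 difference of -0.72, again with no overlap, and without negative siRNA replicate 2 the difference was -0.41. Tnni1 alone did not pass the test. The ratio of Tnni3 to Tnnc1 had a log2 difference of 0.26 and overlapping groups (exact permutation test, p = 0.3), with 0.05 to 0.42 when single cultures were left out, the lowest without negative siRNA replicate 1 and the highest without replicate 3. Every comparison with no overlap has the smallest exact permutation p, 0.1, and an adjusted p of 0.171 over the 12 ratios compared.

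The rise of the cardiac troponins went along with that of cardiomyocyte markers in general, of which 7 of 10 rose. Their median log2 fold change was 1.03, against -0.0049 over all genes tested, and with single cultures left out 5 (without DNMT1 siRNA replicate 2) to 10 (without negative siRNA replicate 2) were called. Reads of each troponin gene were therefore also set against those of Actn2, the sarcomeric alpha-actinin of the Z disc, in the same culture. This measure was chosen after the data had been seen. Actn2 itself rose by a log2 fold change of 1.25 (SE 0.18, edgeR adjusted p = 0.00473). Among protein-coding genes it was number 3 in nearness to Tnnc1 over the 6 cultures, so a near-constant Tnnc1 ratio is no separate result. Tnnc1 gave 0.463, 0.391 and 0.408 reads per read of Actn2 in the controls and 0.449, 0.438 and 0.414 in the knockdown cultures. These overlapped almost entirely, with a log2 difference of 0.05 (exact permutation test, p = 0.6). Tnni3 gave 0.153, 0.183 and 0.224 reads per read of Actn2 and then 0.240, 0.245 and 0.2003, which also overlapped (log2 difference 0.31, exact permutation test, p = 0.2). Over single cultures left out this difference ran from 0.17, without negative siRNA replicate 1, to 0.45.

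Relative to Actn2, Tnni1 and Tnnt2 were lower in all 3 knockdown cultures than in any control. These ratios largely restate the log2 fold changes, which were 1.25 for Actn2, 0.61 for Tnnt2 and -0.18 for Tnni1. Tnnt2 itself was called higher. Another marker could give another outcome, since the 10 cardiomyocyte markers ran from 0.20 (Myh7) to 1.605 (Ryr2). Ratios to the other markers were not tested. Tnni1 gave 0.497, 0.539 and 0.322 reads per read of Actn2 in the controls and 0.165, 0.189 and 0.161 in the knockdown cultures. The groups were far apart, by a log2 difference of -1.37 (exact permutation test, p = 0.1), and by -1.23 without negative siRNA replicate 2. Tnnt2 gave 11.9, 6.52 and 7.10 reads per read of Actn2 and then 4.91, 5.48 and 5.25, a log2 difference of -0.65 with no overlap (exact permutation test, p = 0.1). Negative siRNA replicate 1 was the highest, and without it the difference was -0.39, within a range of -0.82 to -0.39 over single cultures left out. Tnnt1 overlapped between the groups, with a log2 difference of -0.62 (exact permutation test, p = 0.2) that shrank to -0.22 without negative siRNA replicate 2. Fibroblast markers moved the other way, with 3 of 8 called lower (Col1a1, Col1a2 and Dcn; only Dcn without negative siRNA replicate 2 and none without DNMT1 siRNA replicate 2 or 3). The part of a changed cell makeup in the troponin results was not tested.

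**Figure D3:**
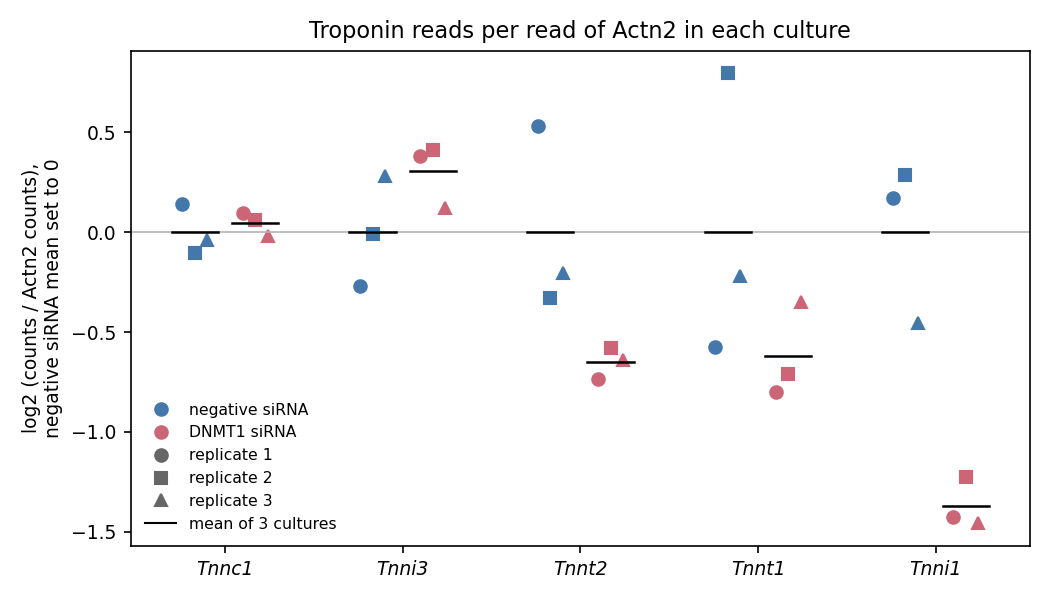
Log2 ratio of the reads of 5 troponin genes to the reads of Actn2 in each culture, with the mean of the negative siRNA cultures set to 0 and bars for the mean of 3 cultures. Tnnc1 overlapped between the groups (difference 0.05), while Tnnt2 (-0.65) and Tnni1 (-1.37) lay lower in all 3 DNMT1 siRNA cultures than in any control. Actn2 itself rose (log2 fold change 1.25), so a lower ratio is not a lower level.

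Skeletal muscle uses several of the troponin genes, so its markers were counted as well. Of 14 listed, 5 passed the filter and 2 rose: Myh1, a fast skeletal myosin heavy chain (log2 fold change 1.29), and Cacna1s, the calcium channel of skeletal muscle (1.61). The 14 summed to 16.0 to 28.9 CPM in the controls and 33.9 to 41.0 CPM in the knockdown cultures. Myod1, Myog, Myf5 and Myf6, which define the skeletal lineage, had at most 3 reads in any culture. Endothelial markers rose in 2 of 6 (Kdr and Emcn), smooth muscle markers fell in 1 of 6 (Pdgfrb), and epicardial markers fell in 1 of 5 (Krt19). Over all genes tested, 4.26% were called higher and 2.23% lower. The endothelial marker Tek went the other way, with no overlap between the groups (log2 fold change -0.35, edgeR adjusted p = 0.0373, under the fold limit). Of the 6 macrophage markers, edgeR's quasi-likelihood test called 0, with 3 lower at an unadjusted p under 0.05. DESeq2 and edgeR's exact test each called 3 lower (Adgre1, C1qa and Csf1r). Csf1r and Cd68, the 2 highest by CPM, had log2 fold changes of -0.96 and 0.18. With single cultures left out, between 0 and 5 endothelial markers were called, Pdgfrb and Krt19 each lost the call in at least 2 of the 6 fits, and the skeletal calls went from 1 without DNMT1 siRNA replicate 2 to 5 without negative siRNA replicate 2. The part of these cells in the troponin values was not tested.

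The proteins that troponin works with on the thin filament did not all move with the cardiac troponins. Of 13 thin filament partners, 6 were called, all of them higher, with a median log2 fold change of 1.01 over the list. Actc1, the cardiac actin, stood at 327, 463 and 361 CPM in the controls and at 1260, 1114 and 981 CPM in the knockdown cultures. The groups were well separated, with a log2 fold change of 1.54 (SE 0.14, edgeR adjusted p = 0.00103), close to that of Tnni3. Lmod2 (1.69) and Lmod3 (1.27), the leiomodins that build actin filaments, Tmod1 (1.56), which caps their pointed ends, Nebl (1.30), the cardiac nebulin relative, and Nrap (1.52), an actin-anchoring protein, were the others. Tpm1, the main tropomyosin of heart muscle, had a log2 fold change of -0.31 (SE 0.11, edgeR adjusted p = 0.106), and Tpm2, Tpm3 and Tpm4 lay between -0.25 and -0.05, none of them called. Acta1 (0.23), Neb (0.79) and Tmod4 (1.01) did not pass either. Tropomyosins are also made by fibroblasts and smooth muscle. With each culture left out, 5 or 6 of the 13 partners were called.

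**Figure D4:**
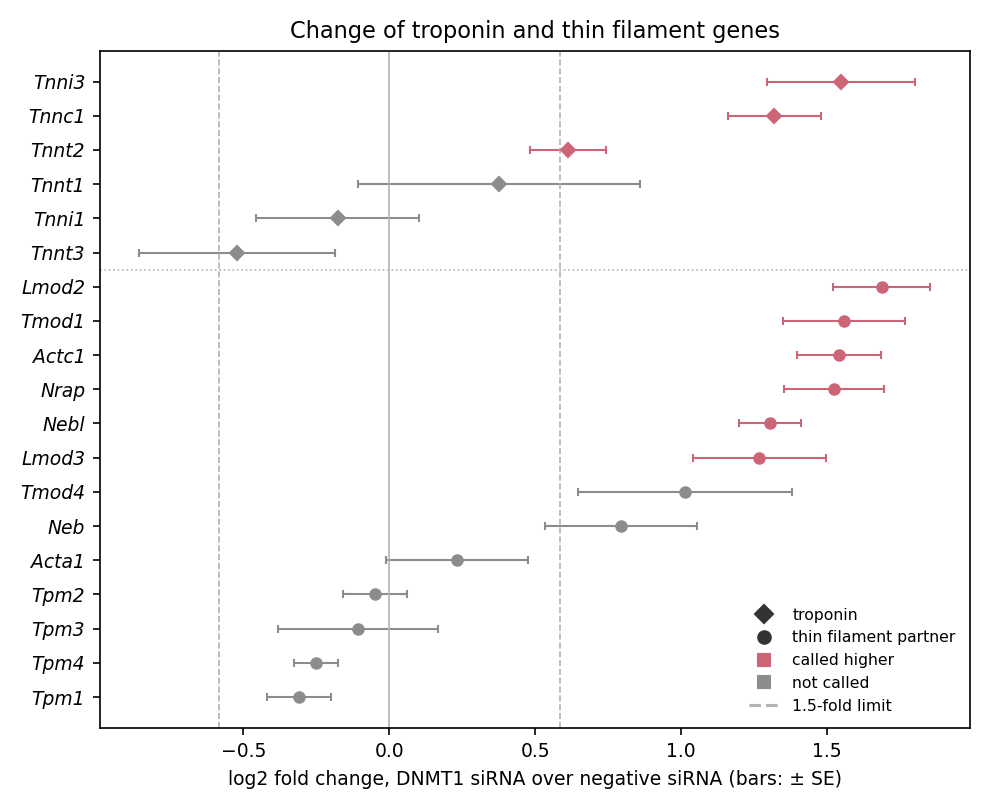
Log2 fold change with SE (DNMT1 siRNA over negative siRNA, 3 cultures each) of the 6 troponin genes tested, above the dotted line, and of 13 thin filament partners, below it; dashed lines mark 1.5-fold and red marks called genes. Actc1 (1.54) and Tmod1 (1.56) lay near Tnni3 (1.55), and the tropomyosins lay at or below 0.

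Enzymes that phosphorylate troponin I or T, or remove the phosphate, mostly did not pass the test. Of 16 kinases and phosphatases, 1 rose and 2 fell, beside 4.26% and 2.23% of all genes tested. The list's median on the log2 scale was -0.08. The one that rose was Tnni3k, a heart-restricted kinase named for its binding to cardiac troponin I. It stood at 0.699, 1.21 and 0.609 CPM in the controls and at 2.90, 3.02 and 2.11 CPM in the knockdown cultures (log2 fold change 1.67, SE 0.32, edgeR adjusted p = 0.0150), with no overlap. Prkcb, protein kinase C beta, fell by 0.69 and Pak1, a p21-activated kinase, fell by 0.91 on the log2 scale (edgeR adjusted p = 0.00987 and 0.00484). Without DNMT1 siRNA replicate 1 or 2, only the call of Pak1 remained. The catalytic subunits of protein kinase A were not called, with log2 fold changes of 0.22 for Prkaca and -0.28 for Prkacb.

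Of 13 splicing factors known from muscle, which include regulators of troponin T exons, 1 was called, and the median log2 fold change was -0.07. With 4.26% of all genes tested called higher and 2.23% lower, 1 call is no result about this list. Rbm20, a splicing factor of titin and other sarcomere transcripts, stood at 26.8, 25.2 and 23.9 CPM and at 50.8, 48.1 and 45.9 CPM. Each group was narrow and the gap between them wide, with a log2 fold change of 0.93 (SE 0.08, edgeR adjusted p = 0.000816). It was called with each culture left out.

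Of 16 cardiac transcription factors and thyroid hormone receptors, 4 were called, all higher, with a median log2 fold change of 0.17. Thrb, the beta thyroid hormone receptor, stood at 1.72, 1.52 and 2.51 CPM and at 6.11, 6.44 and 6.40 CPM, with no overlap (log2 fold change 1.73, SE 0.21, edgeR adjusted p = 0.00286). Thyroid hormone is known to promote the replacement of fetal by adult sarcomere isoforms in the rodent heart. Thra, the alpha receptor, had a log2 fold change of 0.02. Nkx2-5 (0.80), a founder factor of the heart lineage, Hand1 (0.79) and Myocd (0.59), the coactivator myocardin, also passed. The 16 gave 2 calls without negative siRNA replicate 1 or DNMT1 siRNA replicate 1 or 3 (Nkx2-5 and Thrb) and only Thrb without DNMT1 siRNA replicate 2.

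The other sarcomere and channel genes with fetal and adult forms did not all move towards the adult form. Of 14 listed, 5 were called, all higher, with a median log2 fold change of 0.66. Myh6, the adult myosin heavy chain of the mouse ventricle, rose by a log2 fold change of 1.41 (SE 0.18, edgeR adjusted p = 0.00316), and its fetal counterpart Myh7 had one of 0.20 (SE 0.42, edgeR adjusted p = 0.787), a pair with the same order as Tnni3 and Tnni1. Myl2 (0.77), the ventricular regulatory light chain, and Actc1 rose as well. Myl4 (1.11), the light chain of the embryonic ventricle and the atrium, and Hcn4 (0.91), the pacemaker channel that the working ventricle loses, rose too. Without negative siRNA replicate 2, 9 of the 14 were called, Myh7 among them, and without DNMT1 siRNA replicate 1 or 2 only Actc1 and Myh6 remained of the 5 (without replicate 3, Myl4 as well). No test compared the partners of a pair other than troponin I.

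The troponin I and T genes lie in pairs on the chromosomes, while Tnnc1 and Tnnc2 lie alone, and in the pairs of Tnni1 with Tnnt2 and of Tnni3 with Tnnt1 only 1 member was called. Tnni1 and Tnnt2 lie 25365 bases apart on chromosome 1 and on the same strand, with Lad1 between them, yet Tnnt2 rose and Tnni1 had a log2 fold change of -0.18. Tnni3 and Tnnt1 lie 1923 bases apart on chromosome 7, and Tnni3 rose while Tnnt1 had 0.38 (SE 0.48). Without negative siRNA replicate 2, Tnnt1 had 1.23 and both were called. Whether the partners' changes differ was tested only as the read ratio of Tnni1 to Tnnt2, given above. For Tnni3 and Tnnt1 it was not tested. The third pair, Tnni2 and Tnnt3 on chromosome 7, was at or near the limit of detection.

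Of 35 other genes within 50 kb of a troponin gene, 25 were tested, and 0 rose and 1 fell by edgeR's quasi-likelihood test. The shares called over all genes tested were 4.26% higher and 2.23% lower. At an unadjusted p under 0.05, for which no share over all genes was counted, 4 of the 25 were higher and 1 lower. Lsp1, a leukocyte and mesenchymal actin-binding protein that lies between Tnni2 and Tnnt3, stood at 99.5, 198 and 111 CPM and at 74.1, 70.7 and 67.6 CPM (log2 fold change -0.94, SE 0.23, edgeR adjusted p = 0.0366). Negative siRNA replicate 2 was the highest, and the call was lost without it and without any one of the DNMT1 siRNA cultures. Stab1 (0.97) near Tnnc1 and Pkp1 (1.67) near Tnnt2 missed the limit, with edgeR adjusted p of 0.0684 and 0.0541, and both passed with DESeq2 and with edgeR's exact test. Dnaaf3, which shares 86 exon bases with Tnni3, had a log2 fold change of 0.54 (SE 0.29) at 1.08 to 2.69 CPM. Ube2c, which shares 592 exon bases with Tnnc2, had -0.26. Lad1, between Tnni1 and Tnnt2, had -0.06, and none of these 3 passed.

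**Figure D5:**
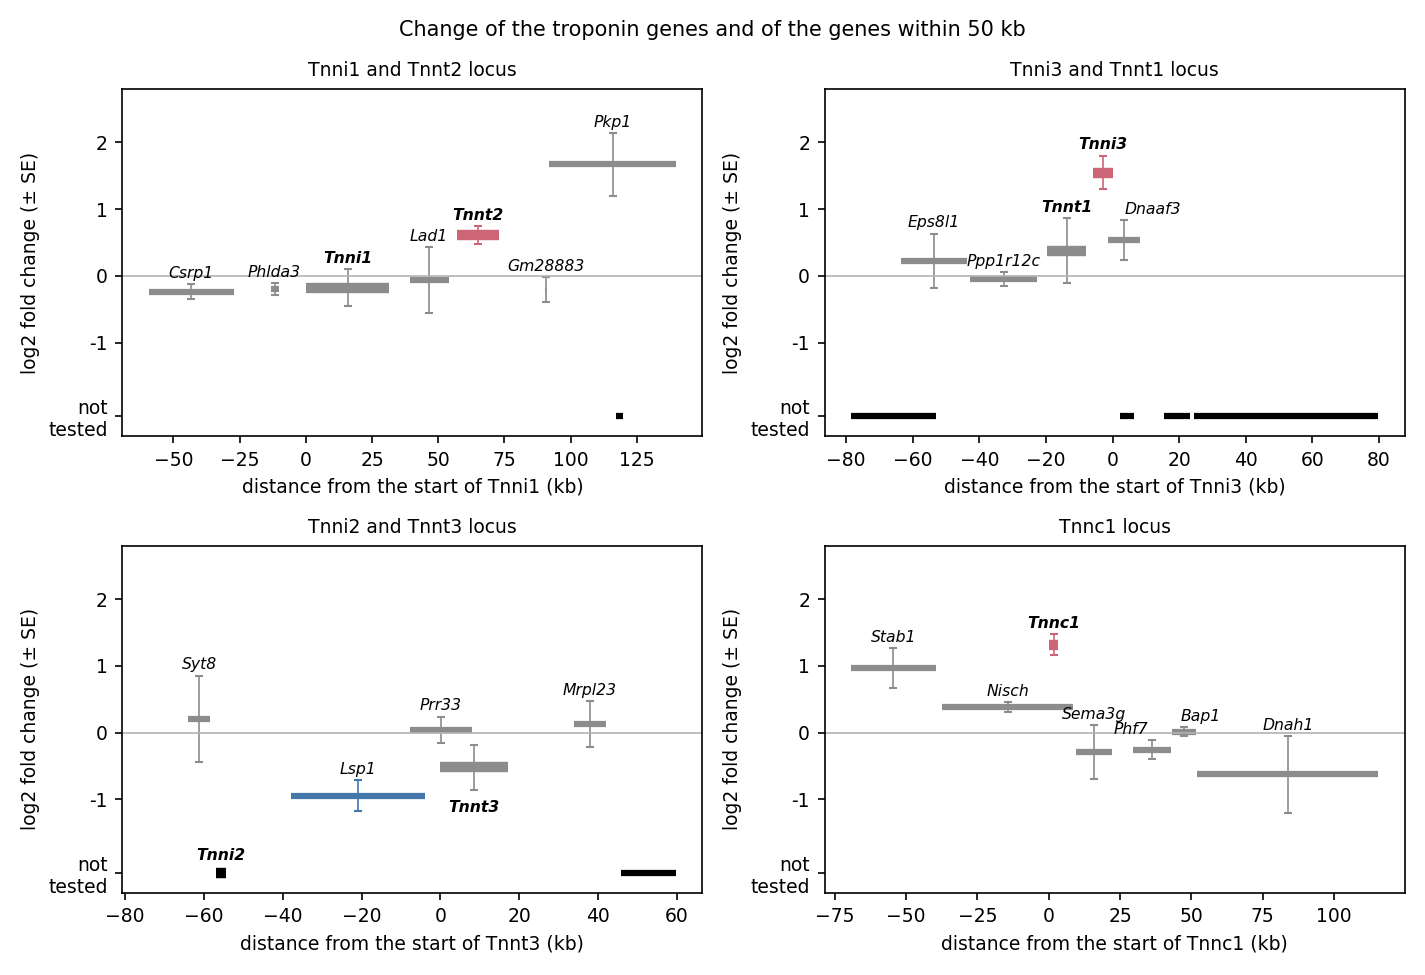
Log2 fold change with SE of the genes within 50 kb of troponin genes, drawn over their position as distance in kb from the start of 1 member; thick bars are troponins, red and blue mark genes called higher and lower, and black bars at the bottom were not tested. Tnni3 (1.55), Tnnc1 (1.32) and Tnnt2 (0.61) stood above their tested neighbours except Pkp1 (1.67), which was not called.

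The genes most like each troponin over the 6 cultures were taken by the distance of centred log2 CPM among 13259 protein-coding genes, a description with no test. Nearest to Tnnc1 were Mylk3, the cardiac myosin light chain kinase, Xirp1 and Actn2 (distances 0.13 to 0.21). Nearest to Tnnt2 were H3f3a, Capn12 and Kdm5d (0.13 to 0.19), and nearest to Tnni1 were Insc, Nalcn and Emx2 (0.15 to 0.27). Ranked by this distance from Tnni3, Tnnc1 was number 44, Tnnt2 number 929, Tnnt1 number 1097 and Tnni1 number 8175.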

How the data were processed

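RNA of 6 cultures of embryonic mouse cardiomyocytes (3 negative siRNA, 3 DNMT1 siRNA) was sequenced by the authors from poly(A) libraries as single reads of 75 cycles. Per the labels and the methods, the authors checked reads with FastQC, mapped them with TopHat2 (mm10) and counted them over Ensembl genes (release 79) with HTSeq. The deposited values are raw counts that were not normalized. The strand and overlap settings of HTSeq are not given in the sources used here. Groups follow the titles of the samples, although the treatment field of the 3 knockdown cultures reads DNMT3a. 5 rows that name no gene (14.6% to 32.0% of unique reads on no gene, 3.58% to 6.35% ambiguous) were left out of the library sizes.

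Counts were tested in R 4.3.3 with edgeR 4.0.16 (TMM, filterByExpr with minimum count 10 and minimum total 15, quasi-likelihood F test, no block), adjusted by Benjamini-Hochberg over 15470 genes. The SE was obtained as the size of the log2 change over √F. Shares and sums used CPM per kb of merged exons (GENCODE M21, GRCm38, which lists 42462 of the 43629 genes) and exact two-sided permutation tests over cultures. Likeness was the Euclidean distance of centred log2 CPM (prior count 2). DESeq2 1.42.0, edgeR's exact test, RLE factors, no filter, no short non-coding, ribosomal RNA or mitochondrial genes, library sizes without TMM for the sums, a replicate block, other lengths and left-out cultures were the alternatives. Only the gene tests of edgeR and DESeq2 were tried on simulated counts. Replicate pairs differed by more than sampling noise (chi-square per degree of freedom 2.7 to 54.46), and each was counted as its own sample. Totals of 13739561 to 35896018 counts set the precision, and floors cover counting error only.

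The named genes are the 8 troponins, tested genes within 50 kb of them, Dnmt1, the called members of each list (the 2 highest by CPM where none was called), and the 3 nearest genes to each of 4 troponins (those of Tnni3 are not reported here); others named were chosen after their values were seen. The members and lists were chosen with earlier results of these data known.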

Additional observations from a re-analysis of the deposited data

How the results depend on the processing

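The log2 fold changes of Tnni3 and Tnnc1 stayed past both limits in all 12 alternative fits, at 1.30 to 1.76 and 1.16 to 1.49, and that of Tnnt3 stayed unpassed at -0.71 to -0.37. Tnnt2 lost its call through the fold limit with no filter (0.58), and with single cultures left out it ranged from 0.49 to 0.72 (edgeR adjusted p 0.0134 to 0.111). Left-out cultures moved Tnni1 between -0.41 and 0.25, where the positive value is that without negative siRNA replicate 2, and Tnnt1 between 0.01 and 1.23. They moved the number of troponins called between 2 and 4, the genes called higher between 255 and 823 (659 with all cultures; 994 with no filter) and those called lower between 112 and 472 (345 with all cultures; 701 with no filter), fewest without DNMT1 siRNA replicate 2. Of the listed genes 16 were called higher (8 to 21 with a culture left out) and 2 lower (1 to 3). Of the neighbouring genes 0 were called higher (2 with DESeq2, 2 with edgeR's exact test and 2 with no filter, which were Stab1 and Pkp1; 0 to 1 with a culture left out) and 1 lower (0 to 1 with a culture left out). The difference in the Tnni3 share was 23.9 to 33.8 points, and that in the Tnnt1 share -0.574 to 0.326 points, reversed without negative siRNA replicate 2. The cause of these shifts was not tested.

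Cultures of equal number did not deviate together (correlations 0.01, -0.02 and 0.03), so the numbers were not taken as pairs. With a replicate block, edgeR's adjusted p was 0.0233 for Tnni3, 0.00880 for Tnnc1 and 0.0132 for Tnnt2, and no troponin call changed. The block left 513 genes called higher and 285 lower, and lost Hand1, Myocd, Myl2, Kdr, Col1a1 and Col1a2, while the macrophage markers Adgre1 and C1qa were called lower. An exact permutation test within pairs cannot go below p = 0.25 for the shares and sums. Depth limits Tnnc2, Tnni2 and Tnnt3, with at most 24 reads per culture.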
